A study of Homo sapiens with 24 samples.

Results

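The genes described here are 58 expressed genes of the distal short arm of chromosome 1 (bands 1p36 to 1p35), from AGRN near the end of the arm to MED18, out of 35993 gene symbols counted. They were chosen by their measured values: the stretch was selected because its genes shifted together between the RT-112 CD44 groups. RT-112 values below are therefore descriptions that no test supports. In the fit of all 12 RT-112 libraries, members called are counted beside the share of all genes called. Counts of other fits show only how far they moved, and nothing is read from any of these counts. The J82 groups and the comparison of the parental lines are tested. All 58 members passed the filter on low counts in both lines (15645 genes tested in RT-112 and 15951 in J82), and so did 249 other genes of the same stretch in RT-112 and 244 in J82.

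RNA was sequenced from J82 and RT-112, both of them human bladder cancer cell lines, in 8 groups with 3 biological replicates each, per the series' design text. In each line the groups were the parental cells (CD44 and CD44v6 labelled Control) and 3 derived lines, CD44 Low, CD44 High and CD44v6, for low or high amounts of CD44, a cell-surface receptor for hyaluronan, or high amounts of its v6 splice variant. The labels name no treatment and do not say how the derived lines were made or whether each is 1 clone, so line and CD44 level cannot be told apart. The replicates are described no further, and p-values measure only the spread between these samples, which may be technical.

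The end of the short arm of chromosome 1 is dense in genes that most cells express, and it is recurrently deleted in several tumour types, neuroblastoma among them. Its genes do not form 1 pathway: the members include ribosomal proteins, the chromatin remodelling subunit ARID1A, which is often mutated in bladder cancer, splicing kinases, ubiquitin ligases, the growth kinase MTOR, the apoptosis caspase CASP9 and regulators of actin and microtubules. What they share is position.

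Promoter sequences are shown for the members at both ends of the range of RT-112 differences and for a pair of gene copies. RefSeq (GRCh38.p14) gave a promoter for 53 of the 58. The 250 bases before the start were searched on both strands for 5 short motifs: the GC box GGGCGG, the CCAAT box CCAAT, the ETS core CCGGAAG, the E-box CACGTG and the TATA box TATAAA. None of these motifs contains another. In the sequences below, written 5′ to 3′ along the gene, capitals mark GC boxes and ETS cores on either strand. ARID1A had the largest RT-112 difference (250 bases at chr1:26695765-26696014, plus strand), MED18 the opposite one (chr1:28328790-28329039, plus strand), and CDK11A (chr1:1724358-1724607, minus strand) and CDK11B (chr1:1659005-1659254, minus strand) are near-identical copies between which reads can be split.
ARID1A: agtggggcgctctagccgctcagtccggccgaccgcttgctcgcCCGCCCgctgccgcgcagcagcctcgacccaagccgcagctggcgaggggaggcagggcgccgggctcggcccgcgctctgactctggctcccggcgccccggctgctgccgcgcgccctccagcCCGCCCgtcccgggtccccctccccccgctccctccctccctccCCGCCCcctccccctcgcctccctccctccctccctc
MED18: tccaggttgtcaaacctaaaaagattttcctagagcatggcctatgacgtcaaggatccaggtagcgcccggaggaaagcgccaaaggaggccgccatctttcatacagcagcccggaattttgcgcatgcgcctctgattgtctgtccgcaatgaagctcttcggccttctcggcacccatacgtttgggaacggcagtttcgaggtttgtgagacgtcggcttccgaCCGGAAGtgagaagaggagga
CDK11A: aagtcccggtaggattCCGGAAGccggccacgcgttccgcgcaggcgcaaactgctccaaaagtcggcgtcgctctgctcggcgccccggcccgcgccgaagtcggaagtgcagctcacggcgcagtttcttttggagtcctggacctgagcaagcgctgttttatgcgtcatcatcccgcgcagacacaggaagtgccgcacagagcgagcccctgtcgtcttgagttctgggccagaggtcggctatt
CDK11B: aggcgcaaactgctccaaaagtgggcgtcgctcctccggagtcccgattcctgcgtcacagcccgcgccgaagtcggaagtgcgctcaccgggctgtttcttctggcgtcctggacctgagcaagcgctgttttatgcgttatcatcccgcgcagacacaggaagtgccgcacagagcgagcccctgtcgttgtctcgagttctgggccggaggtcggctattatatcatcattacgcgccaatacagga

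The ARID1A window held 3 GC boxes and no ETS core, and its G and C content was 80.4%. MED18 held 1 ETS core and no GC box, with 54.4% G and C. CDK11A held 1 ETS core and CDK11B neither motif, although the 2 copies shared 194 of 250 bases in a gapped alignment. Over all members with a promoter, 35 of 53 (66.04%) held a GC box, against 42.3% of all 27305 promoters of that length and 66.3% of those of the other genes tested in RT-112. An ETS core was in 17 (32.1%), against 8.82% of all promoters and 15.8% of those of the other tested genes. The CCAAT box was in 39.6% (all promoters 33.04%, other tested genes 35.8%), the E-box in 9.43% (6.49% and 8.75%) and the TATA box in 1.89% (11.1% and 5.64%). These matches describe letters, and no binding was measured.

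Counts per gene give the total CD44 transcript and do not show the v6 variant. Libraries of CD44 High and CD44v6 overlapped in both lines, while total CD44 was lowest in CD44 Low and next in the parental cells. Its mean ± SD (n = 3) in CPM, which are counts after TMM scaling of library sizes, was 141 ± 18.2 in the Low, 317 ± 27.2 in the parental, 420.2 ± 70.02 in the High and 448 ± 69.02 in the CD44v6 cells of RT-112, and 279 ± 27.9, 445 ± 46.5, 727 ± 32.04 and 799.7 ± 242 in those of J82. Total counts ran from 16752825 to 24419670 per library, and the members took 0.426% to 0.716% of them. The 5 epithelial markers were expressed in both lines, with sums of 5559 to 7391 CPM in J82 and 5908 to 9208 CPM in RT-112. Of the 6 urothelial markers, 5 reached 1 CPM in RT-112 and 1 in J82, where UPK2, UPK3A and KRT5 were at 0. UPK3A was also at 0 in RT-112. The leukocyte markers summed to at most 0.162 CPM, the endothelial ones to at most 3.05 CPM, and HBB was at 0. The 3 fibroblast markers, of which DCN was at 0, summed to 1.79 to 4.75 CPM in RT-112 and to 23.9 to 103 CPM in J82, with 63.5 to 103 CPM in J82 CD44 Low and 30.2 to 36.96 CPM in J82 CD44 High. The 3 mesenchymal markers summed to 4.82 to 11.1 CPM in RT-112 and to 545 to 1050 CPM in J82. In J82 they went the other way from the fibroblast ones, from 545 to 585 CPM in CD44 Low and from 941 to 1050 CPM in CD44 High. The J82 urothelial sum ran from 20.4 to 23.1 CPM in CD44 Low and from 42.8 to 53.6 CPM in CD44 High. In RT-112 the urothelial sum ran from 667 to 750 CPM in CD44 Low and from 988 to 1077 CPM in CD44 High, the same order as the members, while the epithelial sum went the other way, from 7242 to 9208 CPM in CD44 Low and from 5908 to 6462 CPM in CD44 High. The part of these markers in the members' differences was not tested.

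In RT-112, genes along the distal arm up to about MED18 lay lower in CD44 Low and higher in CD44 High and CD44v6 than in the parental cells. The median log2 fold change of the 58 members between CD44 High and CD44 Low was 0.53 (a 1.45-fold higher level in CD44 High), with quartiles of 0.40 and 0.67, and that of the 15587 other genes tested was 0.01. The other 249 genes of the stretch, which are no members, had a median of 0.51, and 208 of them lay above 0. In bulk libraries a lower level in every cell and fewer cells with the transcript cannot be told apart.

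Tested genes whose average log2 CPM reached 3 were then placed in the order of the RefSeq gene table (GRCh38.p14) and read in windows of 20 genes. Between CD44 High and CD44 Low of RT-112 the first 10 windows, from WASH7P to MED18, had medians from 0.46 (CAPZB to ZBTB40) to 0.74 (ENO1 to EXOSC10). The next window, from PHACTR4 to TINAGL1, had a median of 0.04. From there to the end of the long arm the window medians ran from -0.38 (INAVA to BTG2) to 0.34 (NBPF9 to RPRD2), so no later window reached the level of the first 10. From CEP350 to the end of the long arm every window median lay below 0, between -0.38 and -0.13. Over the same genes the window medians of CD44 Low against parental RT-112 cells all lay above 0, between 0.04 and 0.24. In CD44v6 against CD44 Low the first 10 windows ran from 0.38 to 0.67, and the later ones from -0.35 to 0.27. In CD44 Low against parental RT-112 cells the first 10 windows ran from -0.42 (RSRP1 to ARID1A) to -0.13 (ZDHHC18 to MED18), and there a later window, NBPF9 to RPRD2, was lower still at -0.56. In J82, CD44 High against CD44 Low gave window medians from -0.25 to 0.22 along the chromosome, and from -0.17 to 0.10 in the first 10 (to TRNAU1AP). J82 CD44 Low against parental cells gave -0.66 to 0.14 along the chromosome and -0.08 to 0.07 in the first 10. For RT-112, again with CD44 High set against CD44 Low, genes of chromosome 1 after MED18 had a median of -0.05. Among the other chromosomes the medians of that comparison ran from -0.13 (chromosome 4) to 0.24 (chromosome 20), with 0.22 on chromosome 6, 0.14 on chromosome 11 and 0.12 on chromosome 17.

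**Figure D1:**
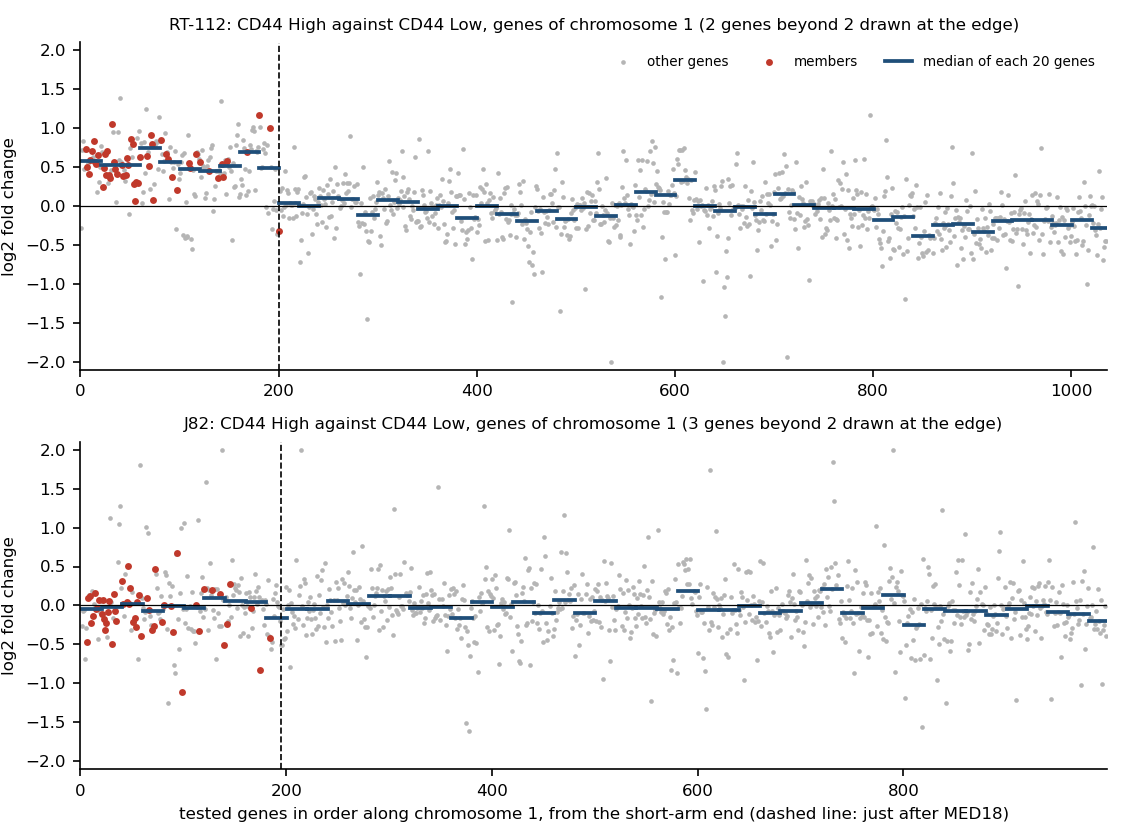
Log2 fold change of CD44 High against CD44 Low for tested genes of chromosome 1 in their order from the short-arm end (x axis, gene number), in RT-112 (top) and J82 (bottom). Red points are members, grey points other genes, and blue lines the median of each 20 genes; in RT-112 the lines before the dashed line at MED18 lie between 0.46 and 0.74, and those after it between -0.38 and 0.34.

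The shift was read library by library as the median over the members of log2(CPM + 0.5) minus each gene's mean over the 12 libraries of its line. In RT-112 the parental replicates 1, 2 and 3 were at -0.12, -0.04 and -0.06, and the CD44 Low replicates at -0.25, -0.25 and -0.39. CD44 High was at 0.27, 0.34 and 0.03, and CD44v6 at 0.18, 0.07 and 0.34. All 3 CD44 Low libraries lay below all 3 parental libraries, and all CD44 High and CD44v6 libraries lay above them. Replicate 3 of CD44 High and replicate 2 of CD44v6 were the closest of their groups to the parental cells. Within CD44 High and CD44v6 the CD44 transcript did not follow that order. It was at 418, 351 and 491 CPM in CD44 High replicates 1, 2 and 3, and at 516, 449 and 378 CPM in those of CD44v6. Between groups both total CD44 and the members were lowest in CD44 Low and next in the parental cells. The part of the CD44 level in the shift was not tested. The medians of all other genes stayed between -0.04 and 0.03 in the RT-112 libraries. In J82 the members' medians ran from -0.05 (CD44v6 replicate 3) to 0.06 (CD44v6 replicate 2), and the groups overlapped.

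**Figure D2:**
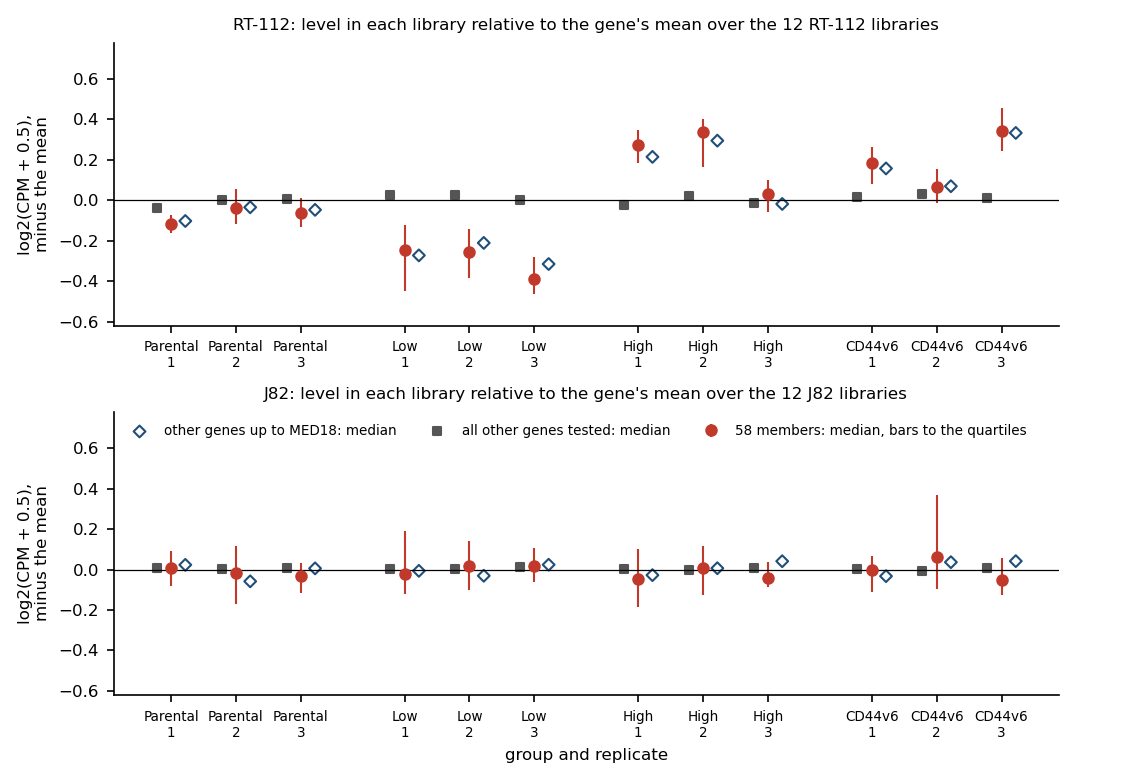
Median level of the 58 members in each library relative to each gene's mean over its line (red, bars to the quartiles, y axis log2), with the other genes of the stretch (blue diamonds) and all other tested genes (grey squares). The RT-112 CD44 Low libraries sit between -0.39 and -0.25, and the CD44 High and CD44v6 libraries between 0.03 and 0.34, while all J82 medians lie between -0.05 and 0.06.

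The counts of members past an adjusted p of 0.05 in RT-112 follow from the choice of members. In the fit of all 12 libraries they are listed only beside the share called over all genes. In CD44 High against CD44 Low 42 members were called higher (background 9.01%) and 0 lower (7.02%), and 57 of 58 lay above 0. Between CD44v6 and CD44 Low 40 were called higher (7.97%) and 0 lower (8.03%), with a median of 0.50. Without CD44v6 replicate 3 the second count was 25, with 1004 of 16140 genes called over all. In 44 members every CD44 High library lay above every CD44 Low library (13.9% of all genes), and in 50 every CD44v6 library did (18.5%). These comparisons share the CD44 Low libraries.

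Against parental RT-112 cells the medians were smaller: -0.28 in CD44 Low, 0.26 in CD44 High and 0.21 in CD44v6, with 56 of 58 members below 0 in CD44 Low and 55 and 54 above 0 in the others. The 3 comparisons share the parental libraries, and the CD44v6 median was 0.14 without CD44v6 replicate 3. Members called were 4 lower in CD44 Low (DVL1, UBE4B, CAPZB and WASF2; background 1.87%), 1 higher in CD44 High (CCNL2; 0.249%) and 2 higher in CD44v6 (NOL9 and LUZP1; 0.288%). Leaving out 1 library at a time gave 0 or 1 in all 3 comparisons with 2 exceptions. Without CD44 Low replicate 3, 5 were called in CD44 Low, with 798 of 16118 genes called over all. Without CD44 High replicate 3, 6 were called in CD44 High, with 196 of 15787 genes called over all. Between CD44v6 and CD44 High the median was -0.04. edgeR and DESeq2 each called 0 members there, beside 0% of all genes in edgeR and 2 of 15645 in DESeq2. An unadjusted p under 0.05 was reached by 0 members and by 665 of the 15587 other genes.

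Each role with more than 1 gene lay above 0 in RT-112, with medians of CD44 High against CD44 Low from 0.42 (metabolism and peroxisome, 5 genes) to 0.63 (transcription and chromatin, 7 genes). The chromatin and transcription members held both extremes. ARID1A, the DNA-binding subunit of the BAF (SWI/SNF) remodelling complex, was at 44.5, 52.2 and 39.6 CPM in parental replicates 1, 2 and 3, 23.98, 29.8 and 35.9 CPM in CD44 Low, 72.5, 73.5 and 50.96 CPM in CD44 High and 63.7, 54.4 and 65.8 CPM in CD44v6. Every CD44 Low library was below every library of the other groups, and the log2 fold change of CD44 High against CD44 Low was 1.17 (SE 0.17), a 2.24-fold difference. SKI, a repressor of TGF-beta and SMAD signalling, differed by 1.05, PHF13, a reader of methylated histone H3, by 0.79, and RERE, a nuclear receptor corepressor, by 0.63. SPEN, a large RNA-binding corepressor, differed less, with 78.3, 71.1 and 70.2 CPM in CD44 Low and 92.00, 87.97 and 68.5 CPM in CD44 High (0.21, SE 0.13). Its libraries overlapped between the groups, as did those of CAMTA1, a calmodulin-binding transcription factor (0.06, SE 0.13).

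The 5 ribosome and mitochondrial translation members lay between 0.40 and 0.87. RPL22, a protein of the large ribosomal subunit and the member of this role with the most counts, was at 606, 677 and 692 CPM in the parental cells, 606, 599 and 532 CPM in CD44 Low, 841, 703 and 686 CPM in CD44 High and 734, 632 and 804 CPM in CD44v6. CD44 Low overlapped with none of the derived groups and lay just under parental replicate 1 (605.9 against 606.2 CPM), while the parental libraries overlapped with both CD44 High and CD44v6. NOL9, a kinase of ribosomal RNA processing, was at 25.7, 23.1 and 25.2 CPM in CD44 Low and 47.9, 47.2 and 36.7 CPM in CD44 High, with 29.03, 29.8 and 31.95 CPM in the parental cells, and differed by 0.87 (SE 0.11). RPL11, another large-subunit protein, differed by 0.58, and the mitochondrial ribosome proteins MRPL20 and AURKAIP1 by 0.65 and 0.57.

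Among the 6 RNA processing members the cyclin-dependent kinases CDK11A and CDK11B, which act in transcription and splicing, had close values. CDK11A was at 38.8, 54.5 and 53.4 CPM in CD44 Low and 83.7, 85.6 and 65.5 CPM in CD44 High (0.71, SE 0.17), and CDK11B at 30.3, 39.9 and 38.98 and 59.6, 63.3 and 46.4 CPM (0.66, SE 0.15). Since these genes are near-identical copies and the counting could split reads between them, their separate values are uncertain. HNRNPR, an RNA-binding protein of pre-mRNA complexes, was at 311, 321 and 333 CPM in CD44 Low and 441, 389 and 393 CPM in CD44 High (0.38, SE 0.08). INTS11, the endonuclease of the Integrator complex, differed by 0.70, CCNL2, a cyclin of splicing kinases, by 0.55, and SSU72, a phosphatase of RNA polymerase II, by 0.24, the smallest of this role.

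In the ubiquitin role UBE4B, a ubiquitin chain elongation factor, was at 60.95, 65.5 and 63.4 CPM in the parental cells, 44.95, 44.4 and 47.98 CPM in CD44 Low, 91.7, 89.6 and 72.1 CPM in CD44 High and 78.4, 74.9 and 97.1 CPM in CD44v6. The CD44 Low libraries lay below all others and the CD44 High and CD44v6 libraries above all parental ones, with 0.92 (SE 0.12) between CD44 High and CD44 Low. UBR4, a ligase of the N-degron pathway with the most counts of this role, was at 108, 93.5 and 126 CPM in CD44 Low and 181, 183 and 146 CPM in CD44 High (0.67, SE 0.13), and UBE2J2, MIB2 and FBXO44 by 0.41, 0.50 and 0.40. Of the mitochondria and cell death members, the fusion GTPase MFN2 differed the most, from 133, 148 and 145 CPM in CD44 Low to 247, 229 and 188 CPM in CD44 High (0.67, SE 0.11). CASP9, the initiator caspase of the mitochondrial apoptosis pathway, differed by 0.51 at means of 3.36 ± 0.298 and 4.65 ± 0.615 CPM (SD, n = 3), and SDHB, a subunit of succinate dehydrogenase, by 0.49. PARK7, DFFB, which is the apoptotic nuclease, and DNAJC11 differed by 0.30, 0.35 and 0.29.

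The signalling members were led by MTOR, the kinase of the growth-regulating mTOR complexes. It was at 91.6, 98.6 and 87.8 CPM in the parental cells, 62.8, 69.6 and 70.3 CPM in CD44 Low, 125, 131 and 100.1 CPM in CD44 High and 109.6, 103 and 143 CPM in CD44v6, so that the 3 levels of low, parental and high did not overlap (0.84, SE 0.13, CD44 High against CD44 Low). DVL1, a transducer of WNT signals, differed by 0.83, ICMT, which methylates prenylated proteins such as RAS, by 0.61, and LZIC by 0.51. GNB1, a beta subunit of heterotrimeric G proteins, was at 203, 221 and 167 CPM in CD44 Low and 262, 266 and 213 CPM in CD44 High (0.36, SE 0.12), and the groups overlapped. CDC42, a regulator of cell polarity, differed by 0.36.

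WASF2, which activates the ARP2/3 complex in actin branching, differed the most of the 7 cytoskeleton members. It was at 48.1, 55.7 and 50.2 CPM in the parental cells, 27.7, 28.6 and 40.5 CPM in CD44 Low, 66.5, 68.7 and 54.8 CPM in CD44 High and 62.1, 59.3 and 72.7 CPM in CD44v6, a 2.01-fold difference between CD44 High and CD44 Low (log2 1.005, SE 0.15) with CD44 Low below every other library. STMN1, a microtubule-destabilising protein and the member of this role with the most counts, was at 417, 398 and 383 CPM in CD44 Low and 659, 718 and 511 CPM in CD44 High (0.69, SE 0.13). The kinesin KIF1B differed by 0.80, the actin-capping subunit CAPZB by 0.57, and LUZP1, WRAP73 and EFHD2 by 0.53, 0.53 and 0.37. Among the 10 secretory and membrane members AGRN, the heparan sulfate proteoglycan agrin, was at 86.05, 92.02 and 68.7 CPM in CD44 Low and 140.3, 157 and 105 CPM in CD44 High (0.74, SE 0.14), with no overlap. The others of that role (SDF4, ACAP3, RER1, VAMP3, CLSTN1, VPS13D, ATP13A2, DDOST and SLC35E2B) differed by 0.31 (VAMP3, a vesicle SNARE) to 0.64 (CLSTN1, a calsyntenin).

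PGD, an enzyme of the pentose phosphate pathway, stood apart from the other metabolic members. It was at 218, 256 and 209.6 CPM in the parental cells, 264, 267 and 179 CPM in CD44 Low, 254, 262 and 213 CPM in CD44 High and 234, 225 and 263 CPM in CD44v6, and all 4 groups overlapped (0.07, SE 0.14). The other metabolic members, NADK, which makes NADP, PEX10 of peroxisome import and PANK4, differed by 0.40, 0.48 and 0.42. ACOT7, an acyl-CoA thioesterase, was at 21.7, 18.6 and 13.8 CPM in CD44 Low and 27.9, 27.2 and 21.2 CPM in CD44 High, groups that overlapped, and differed the most of this role (0.53, SE 0.17). LRRC47, whose role is not grouped here, was at 25.1, 26.5 and 27.00 CPM in CD44 Low and 34.98, 35.3 and 30.6 CPM in CD44 High (0.39, SE 0.11).

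Between CD44v6 and CD44 Low, a comparison that shares the CD44 Low libraries with the one above, the ends of the range were as follows. ARID1A was at 1.03 (SE 0.17), WASF2 at 0.997 (SE 0.15), NOL9 at 0.95, SKI at 0.90, UBE4B at 0.86 and AGRN at 0.83. At the other end were MED18 (-0.29, SE 0.20), SPEN (-0.04), CAMTA1 (-0.03) and PGD (0.02). Between CD44v6 and CD44 High the members ran from -0.25 (CASP9, SE 0.18) to 0.27 (PANK4, SE 0.19).

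**Figure D3:**
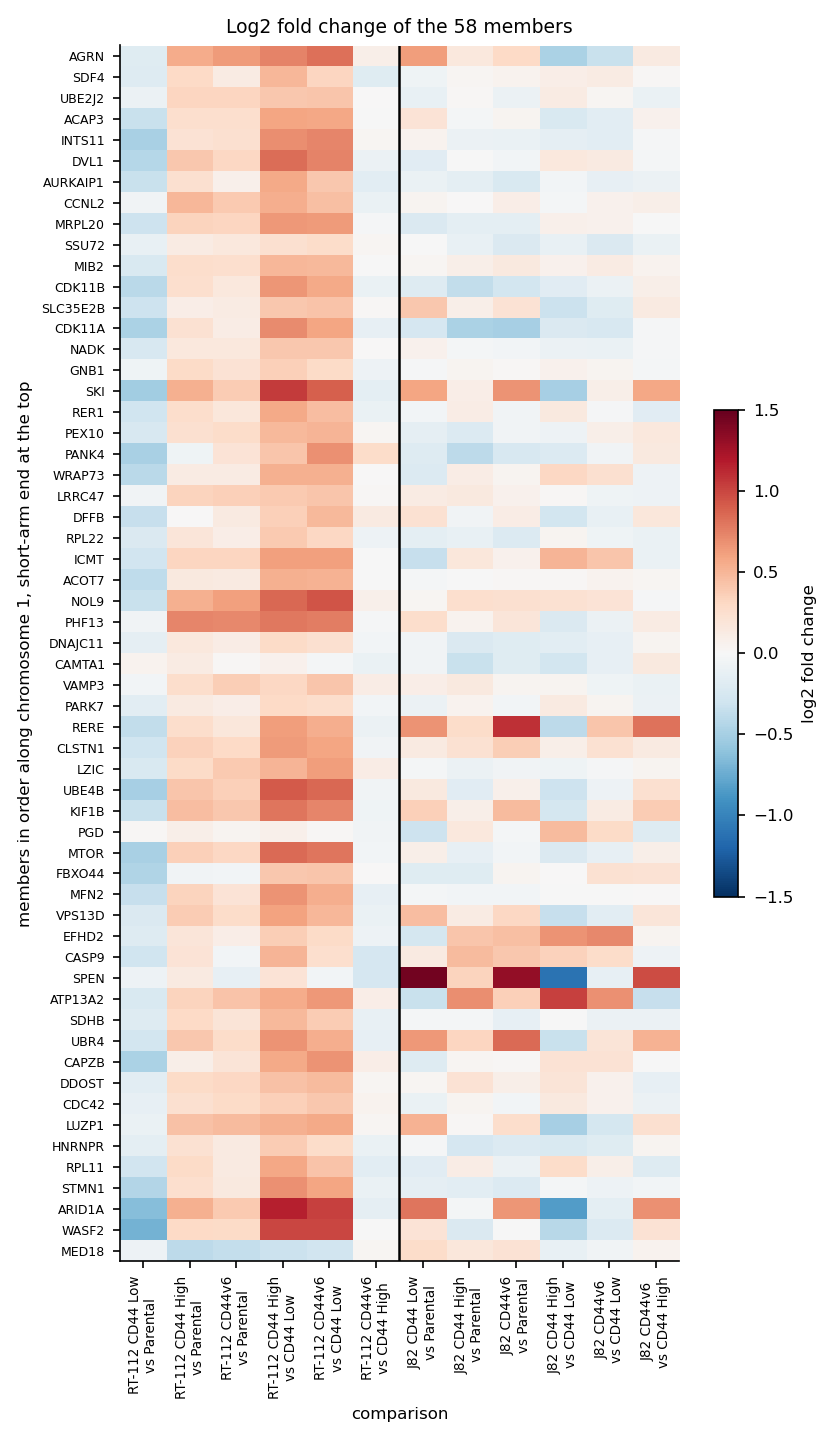
Log2 fold change (colour) of each member (rows, in order along chromosome 1) in the 6 RT-112 comparisons (left of the black line) and the 6 J82 comparisons (right). The RT-112 columns of CD44 High and CD44v6 against CD44 Low are red down to WASF2 apart from genes such as PGD and CAMTA1, and MED18 at the bottom is blue at -0.32 and -0.29.

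The stretch ends at MED18, a subunit of the Mediator complex, which itself had the opposite sign: 10.8, 10.1 and 7.64 CPM in CD44 Low and 6.88, 6.21 and 9.15 CPM in CD44 High, groups that overlapped (-0.32, SE 0.20). Just inside the end, WASF2 was at 1.005 and its neighbour MAP3K6 at 1.002 (log2, CD44 High against CD44 Low), while the next genes were FAM76A at 0.51, STX12 at -0.29, PPP1R8 at -0.03, RPA2 at 0.06, EYA3 at 0.48, DNAJC8 at -0.05, ATP5IF1 at -0.35 and SESN2 at -0.34. Just outside it PHACTR4 was at 0.20, SNHG3 at -0.05, RCC1 at 0.24, SNORA73A at -0.13, SNORA73B at -0.01, TRNAU1AP at 0.46, SNHG12 at 0.02, TAF12 at 0.21, GMEB1 at 0.17 and YTHDF2 at -0.15. From STX12 on, values near or below 0 were mixed with values close to the stretch median, on both sides of MED18.

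A list of 12 further genes known from this region, none of them members, was read in the same way, and 10 of them were tested in each line. In RT-112 all 10 lay above 0 in CD44 High against CD44 Low, with a median of 0.78. They belong to the 249 other genes of the stretch chosen for its RT-112 shift, of which 208 lay above 0. Their values therefore give no separate support. ENO1, the glycolytic enolase, was at 1503, 1471 and 1453 CPM in the parental cells, 1075, 1043 and 1061 CPM in CD44 Low, 1958, 1834 and 1651 CPM in CD44 High and 1697, 1539 and 2042 CPM in CD44v6, so that CD44 Low lay below all other libraries (0.81, SE 0.10). ERRFI1, a feedback inhibitor of EGFR, differed by 0.97, CASZ1, a zinc finger transcription factor, by 0.82, PRDM2 by 0.76, and the mitochondrial kinase PINK1 by 0.60. CHD5, a chromatin remodeller studied in neuroblastoma, had no count in the CD44 Low libraries and 1.11 ± 0.233 CPM in CD44 High. That mean was 7.84-fold the mean CPM of a floor of 3 counts per CD44 Low library. CHD5 was at a low level, and its CD44 Low and parental libraries overlapped. The list median with CHD5 at that fold was again 0.78. TP73 (0.80, SE 0.38), E2F2 (0.64, SE 0.29), EPHA2 (0.35, SE 0.15) and ID3 (0.16, SE 0.13) lay above 0 too, but their libraries overlapped between the groups. RUNX3 and PRDM16 were too low to test.

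**Figure D4:**
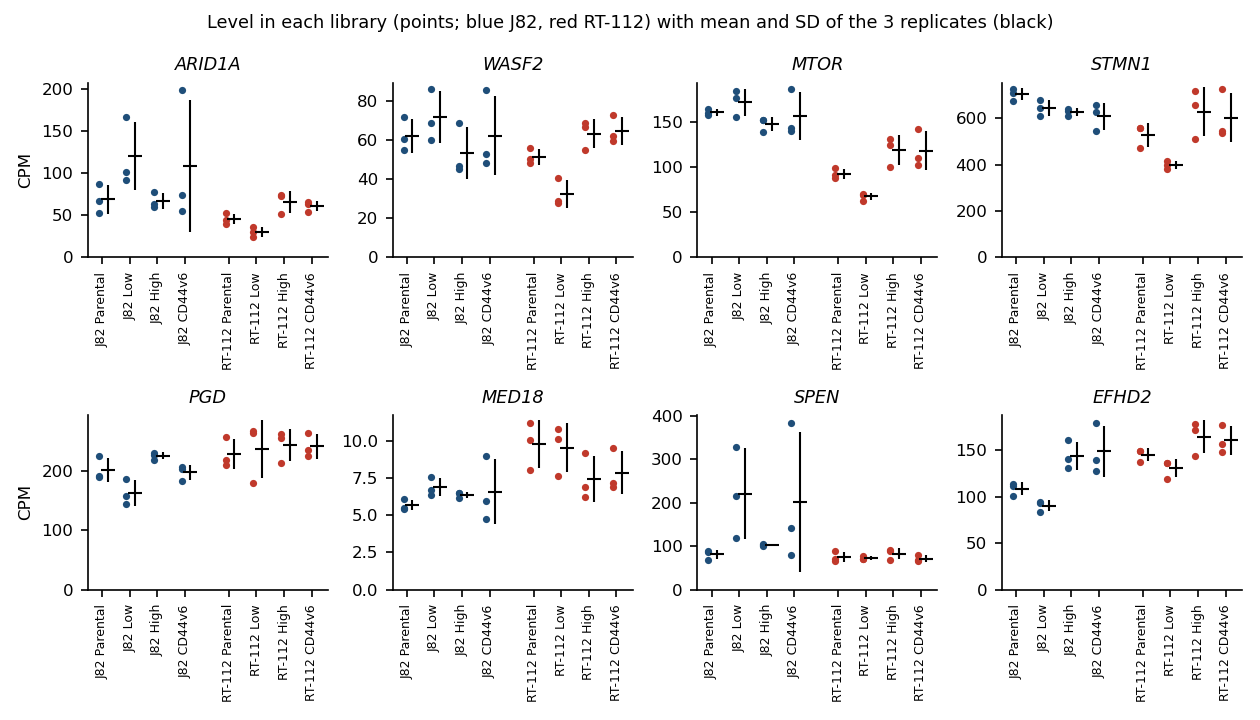
CPM (y axis, linear from 0) of 8 members in every library, with group means and SD (n = 3); blue points are J82 and red points RT-112. In RT-112, ARID1A, WASF2, MTOR and STMN1 are lowest in CD44 Low, while PGD and SPEN overlap between all groups. In J82, SPEN is spread from 118 to 328 CPM within CD44 Low and from 79.3 to 385 CPM within CD44v6.

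J82 was not used to choose the members, and there the stretch did not shift as a block. The median of the members against parental cells was -0.02 in CD44 Low, 0.02 in CD44 High and 0.03 in CD44v6, and it was -0.04 in CD44 High and -0.02 in CD44v6 against CD44 Low. All other genes had medians of 0.00, 0.00, 0.01, -0.02 and -0.01 in the same comparisons. Of the 58 members, 25 lay above 0 in CD44 High against CD44 Low, where 57 did in RT-112. The difference between the lines was not tested, because the RT-112 values chose the members.

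Single members did change in J82. In CD44 High against CD44 Low, edgeR called 4 of 58 higher (background 8.83%) and 1 lower (6.90%), so the share of members called lay below that of all genes. EFHD2, a calcium-binding regulator of actin, was at 114, 112 and 100.6 CPM in the parental cells, 93.4, 83.9 and 93.98 CPM in CD44 Low, 140.3, 161 and 131 CPM in CD44 High and 128, 179.6 and 139 CPM in CD44v6. The CD44 Low libraries lay below all others, and EFHD2 rose by 0.68 (SE 0.12, edgeR adjusted p = 0.00246) in CD44 High and by 0.72 (adjusted p = 0.00230) in CD44v6. ICMT was at 67.5, 70.8 and 80.1 CPM in CD44 Low, 115, 102 and 93.01 CPM in CD44 High and 95.5, 92.1 and 102 CPM in CD44v6, with no overlap between CD44 Low and the others, and rose by 0.51 (SE 0.10, edgeR adjusted p = 0.00428) and 0.41 (adjusted p = 0.0217). ICMT in CD44v6 kept its call in 2 of the 6 fits that each left out 1 library (edgeR adjusted p 0.0165 to 0.0788), and lost it in a fit of the 2 groups alone.

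PGD, which differed by 0.07 in RT-112, was at 144, 158 and 187 CPM in J82 CD44 Low and 230.1, 227 and 218 CPM in CD44 High, without overlap, and rose by 0.47 (SE 0.11, edgeR adjusted p = 0.00888). ATP13A2, a lysosomal transporter of polyamines, was at 5.18, 4.59 and 5.10 CPM in CD44 Low and 12.5, 8.48 and 9.14 CPM in CD44 High and rose by 1.02 (SE 0.23, edgeR adjusted p = 0.00889), a 2.03-fold change at a low level. These 4 rises in CD44 High were called in all 6 fits that left out 1 library. AGRN went the other way: it was at 126, 110.2 and 120.4 CPM in the parental cells, 207, 179 and 166 CPM in CD44 Low and 136, 125 and 136 CPM in CD44 High, with every CD44 Low library above those of both groups. AGRN rose by 0.63 (SE 0.14, edgeR adjusted p = 0.0218) in CD44 Low against parental cells, the 1 member called there (background 2.26%), and fell by 0.47 (adjusted p = 0.0383) in CD44 High against CD44 Low. Both calls of AGRN were lost in 5 of 6 edgeR fits with 1 library left out, with adjusted p up to 0.114 and 0.159. They were kept without CD44 Low replicate 3. In that fit 4 members were called in CD44 Low against parental cells, and 965 of 16392 genes over all.

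The members with the largest RT-112 differences did not pass in J82. WASF2 was at 86.2, 60.2 and 68.96 CPM in J82 CD44 Low and 46.6, 45.2 and 68.6 CPM in CD44 High, groups that overlapped (log2 fold change -0.42, SE 0.22, edgeR adjusted p = 0.222). MTOR was at 184, 176 and 155 CPM in CD44 Low and 139, 152 and 152 CPM in CD44 High (-0.21, SE 0.11, edgeR adjusted p = 0.215). UBE4B (-0.31, edgeR adjusted p = 0.0884), SKI (-0.49, adjusted p = 0.279) and ARID1A (-0.83, adjusted p = 0.167) were negative too, and NOL9 was positive (0.23, adjusted p = 0.0938). RPL22 and STMN1, both abundant, were at 0.04 (SE 0.13) and -0.03 (SE 0.08). In this J82 comparison the members with longer transcripts had the lower fold changes, as given below, and the part of length was not tested.

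CD44v6 against CD44 Low gave 2 members called higher, EFHD2 and ICMT (background 6.18%). The count was 1 without CD44 Low replicate 1 or 2 or CD44v6 replicate 1 or 3, with 1024 to 1317 genes called over all. It was 3 without CD44 Low replicate 3 (1267 of 16392 genes) and 5 without CD44v6 replicate 2 (1695 of 16352). In CD44 High against parental cells 0 members were called by edgeR (background 2.94%). There 10 of 58 had an unadjusted p under 0.05, beside 2507 of the 15893 other genes. DESeq2 called 2 members, and 900 of all 15951 genes. In CD44v6 against parental cells 0 were called by edgeR (2.60%), and 13 of 58 had an unadjusted p under 0.05, beside 3128 of 15893 other genes. DESeq2 called 1 member, and 1006 of 15951 genes. Without CD44v6 replicate 3 edgeR called 3 members, and 1120 of 16426 genes. In CD44v6 against CD44 High 0 were called by edgeR (0% of all genes) and by DESeq2 (77 of 15951 genes). Only 1 member, SPEN, had an unadjusted p under 0.05, beside 1535 of 15893 other genes. Of the 12 further genes of the region, 10 were tested in J82, 8 lay above 0 in CD44 High against CD44 Low (median 0.17), and edgeR called 3 higher (8.83% of all genes) and 0 lower (6.90%): ERRFI1 (1.81, adjusted p = 5.35e-05), CASZ1 (1.28, adjusted p = 0.00468) and EPHA2, an ephrin receptor (1.06, adjusted p = 1.29e-04).

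Some members with long transcripts varied widely within 2 of the J82 groups, while MTOR, also long, was less spread in CD44 Low, as given above. SPEN was at 89.2, 68.5 and 85.5 CPM in the parental cells, 328, 216 and 118 CPM in CD44 Low, 99.4, 104 and 102 CPM in CD44 High and 142, 385 and 79.3 CPM in CD44v6. Replicate 1 of CD44 Low and replicate 2 of CD44v6 were the highest libraries, and the change of SPEN in CD44 Low against parental cells (1.44, SE 0.46) did not pass (edgeR adjusted p = 0.0898). The same 2 libraries were the highest of their groups for ARID1A (167, 102 and 92.3 CPM in CD44 Low, 73.6, 199 and 54.5 CPM in CD44v6), UBR4 (384, 282 and 213 CPM in CD44 Low, 259.6, 553 and 189 CPM in CD44v6) and RERE, where CD44 Low was at 18.4, 11.6 and 7.62 CPM and CD44v6 at 10.8, 30.5 and 9.16 CPM.

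Transcript length was taken as the longest coding transcript of GENCODE 29, found for all 58 members. The 9 members of at least 8000 bases (CAMTA1, RERE, KIF1B, MTOR, VPS13D, SPEN, UBR4, LUZP1 and ARID1A) had a median of 0.52 in J82 CD44 Low against parental cells, and the 49 shorter ones -0.03. Across the members, the Spearman correlation of the fold change with length was 0.63, against 0.34 across 9180 other genes. In J82 CD44 High against CD44 Low it was -0.60 (-0.27 over other genes), with medians of -0.34 for long and 0.003 for shorter members. In J82 CD44 High against parental cells it was 0.14 (0.02). For J82 CD44v6 it was 0.52 (0.39) against parental cells and 0.63 (0.50) against CD44 High. In RT-112 CD44 Low against parental cells it was -0.11 over the members and 0.03 over other genes, with medians of -0.27 for long and -0.29 for shorter members, so both length classes were lower. In RT-112 CD44 High it was 0.30 over the members (-0.0046 over other genes) when CD44 Low was the reference, with medians of 0.63 for long and 0.51 for shorter members, and 0.38 (0.04) against parental cells. These correlations are across genes of the same libraries, which are no independent replicates, and are descriptions. Library by library, this correlation over the members was 0.72 in J82 CD44 Low replicate 1 and 0.65 in CD44v6 replicate 2, and between -0.63 and 0.33 in the other 10 J82 libraries. Over 9133 other genes it was 0.41 and 0.48 in the same 2 libraries, and between -0.33 and 0.19 in the other 10. The part of length or of these libraries in the J82 differences was not tested beyond leaving them out. Without both, edgeR called 3 members in CD44 Low against parental cells, 2 in CD44 High against parental cells and 6 in CD44 High against CD44 Low. Over all 16196 genes it then called 918, 933 and 2434.

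**Figure D5:**
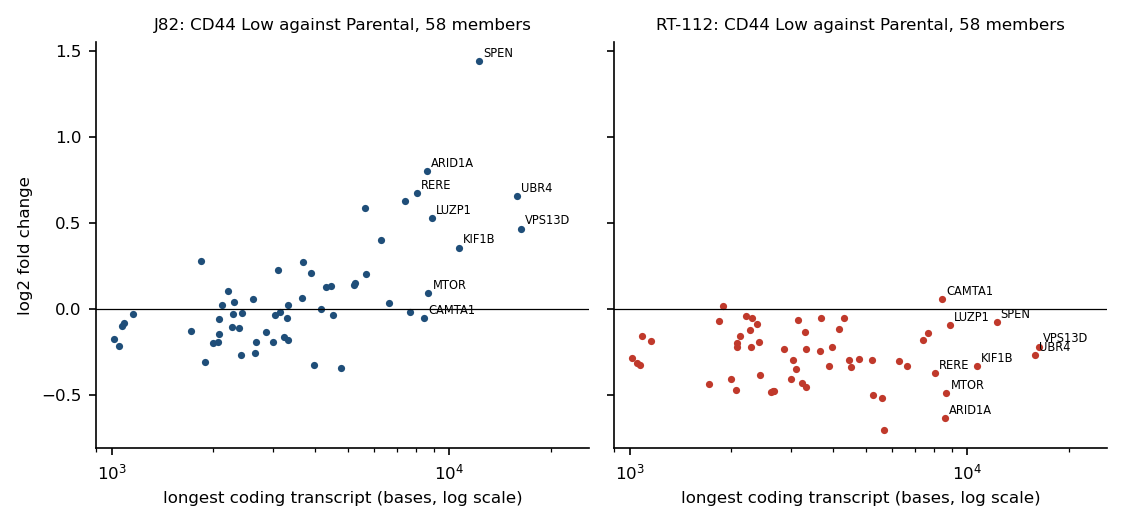
Log2 fold change of CD44 Low against parental cells (y axis) by the length of the longest coding transcript in bases (x axis, log scale) for the 58 members, in J82 (left) and RT-112 (right); genes of at least 8000 bases are named. In J82 the long members lie mostly above 0, up to SPEN at 1.44. In RT-112 long and short members lie alike below 0, apart from CAMTA1 at 0.06 and PGD at 0.02.

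Parental J82 and RT-112 cells were compared over all 24 libraries (17438 genes), a contrast the choice of members did not use. The members had a median log2 fold change of 0.32 (higher in J82), against -0.01 over the other genes, and 45 of 58 lay above 0. The 271 other genes of the stretch had a median of 0.17, with quartiles of -0.78 and 0.74. Of those 271, 152 lay above 0, and edgeR called 87 higher and 74 lower in J82. edgeR called 28 members higher in J82 (background 31.0%) and 5 lower (background 31.0%). ACOT7 was at 98.5, 92.2 and 94.3 CPM in J82 and 22.1, 23.4 and 23.5 CPM in RT-112 parental cells, a 4.13-fold difference (log2 2.05, SE 0.15, edgeR adjusted p = 5.10e-11). GNB1 was at 431, 411 and 407 and 194, 209.9 and 201 CPM (log2 1.05, SE 0.11, edgeR adjusted p = 1.62e-08), and NOL9 and MTOR were higher by 0.94 and 0.80. The 5 members lower in J82 were ATP13A2 (-1.53, edgeR adjusted p = 1.37e-06), RERE (-1.08), CASP9 (-0.83), MED18 (-0.79) and EFHD2 (-0.42). All 5 kept their calls in the 6 fits that left out 1 parental library, where the number of members called ran from 26 to 31.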

How the data were processed

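Gene counts of 24 RNA-seq libraries (J82 and RT-112, 4 groups each, 3 replicates) were used as deposited by the authors; 0 rows lacked a gene symbol. The submitters' processing notes name HISAT2, StringTie and GRCh37 with no order; the annotation, the strand setting and the handling of reads shared between genes are not given in the sources used here. Of the 58 members, 11 have exons that overlap another counted gene, 2 of them on the same strand. Counts were tested with edgeR 4.0.16 (R 4.3.3, limma 3.58.1) by the quasi-likelihood F-test with TMM scaling and filterByExpr, in 1 fit per line with group as the only term, and over all 24 libraries for the parental cells; p-values were adjusted by Benjamini-Hochberg over all tested genes, with calls at 0.05. DESeq2 1.42.0, median-of-ratios scaling, no filter, fits of the compared groups alone, a replicate block and leaving out each library were alternatives; a fit without 2 J82 libraries was chosen after seeing the data. Steps were tested on simulated data first.

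The members and gene lists were chosen with earlier results of these data known. Values in every library are given for the member of each role with the largest RT-112 difference between CD44 High and CD44 Low and the one with the most counts, for the 5 members with the smallest adjusted p in J82, for CDK11A and CDK11B, and for CD44; SPEN, UBR4, ARID1A and RERE in J82, MED18, ENO1, WASF2 and MTOR in J82 and members of the parental comparison were added after their values were seen. No 2 libraries of a group agreed within sampling noise (chi-square per degree of freedom from 6.03 to 58.7). Same-numbered libraries correlated by -0.305 to 0.378 in their deviations from the group means, all above 0.1 in 1 of 13 comparisons (J82 CD44v6 against CD44 High), where the block gave 0 members as well. Gene order is that of RefSeq GRCh38.p14, which placed 98.0% of tested genes. Python 3.11.15, pandas 2.3.3 and matplotlib 3.10.9 were used for summaries and figures.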

Additional observations from a re-analysis of the deposited data

Results flagged for a closer look

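For some members every library of the derived line moved one way from its reference group's libraries in J82 and the opposite way in RT-112. The values below are the J82 log2 fold change minus that of RT-112. For none of them was the difference tested, since the RT-112 values chose the members, and the comparisons share libraries. Beside each count stands the share of the 14237 genes tested in both lines that did the same.

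Between CD44 High and CD44 Low, 7 members were lower in every J82 library of CD44 High and higher in every RT-112 one (1.77% of genes): ARID1A by -2.0002, SKI by -1.54, UBE4B by -1.23, AGRN by -1.21, MTOR by -1.06, LUZP1 by -1.04 and HNRNPR by -0.61. Of these, only AGRN passed the J82 test on its own. In J82 alone, every CD44 High library lay below every CD44 Low one in 9 of 58 members and in 2770 of the 15893 other genes. The longest coding transcripts of these 7 members had 5267 (UBE4B) to 8898 (LUZP1) bases, and the part of length was not tested. In CD44 Low against parental cells, SKI (1.11) and ARID1A (1.44) were higher in J82 and lower in RT-112 (2 members; 0.738% of genes). MRPL20 (-0.48), MTOR (-0.47) and HNRNPR (-0.48) were lower in J82 CD44 High than in parental cells and higher in RT-112 (3 members; 0.555%). SSU72 (-0.37) and HNRNPR (-0.34) did so in CD44v6 against parental cells (2 members; 1.51%), and INTS11 (-0.88), SSU72 (-0.49) and HNRNPR (-0.47) in CD44v6 against CD44 Low (3 members; 1.23%).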

How the results depend on the processing

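Over 71 recomputed counts of members, leave-one-out fits aside, 49 stayed within 1.5 times their value and 22 moved, while all 71 medians kept within the spread between libraries, the largest move being 0.05. Reasons for these moves were not tested. In brackets below are the genes called over all. In J82 fits of the 2 groups alone, the counts against parental were 4 in CD44 Low (1501 of 15105) and 4 in CD44 High (1350 of 15192). Against CD44 Low they were 8 in CD44 High (2223 of 15278) and 1 in CD44v6 (636 of 15223). Such fits in RT-112 gave 15 in CD44 Low (1126 of 15226), 0 in CD44 High (43 of 14956) and 6 in CD44v6 (953 of 15066) against parental. DESeq2 gave 3, 2 and 1 in J82 CD44 Low, CD44 High and CD44v6 against parental cells (1454, 900 and 1006 of 15951). In RT-112 it gave 8, 7 and 10 (955, 277 and 578 of 15645). The fit with a replicate block gave 2 for CD44 Low against parental in each line (1132 of 15951 in J82, 303 of 15645 in RT-112). For CD44 High and CD44v6 against parental in RT-112 it gave 0 and 0 (59 and 58 of 15645). The block moved no other count by over 1.5 times, and the labels do not say that equal numbers mark a shared batch. Without a filter RT-112 CD44 High and CD44v6 against parental gave 0 and 1 (58 and 60 of 24230), and median-of-ratios scaling gave 0 in CD44 High (73 of 15645). Without J82 CD44 Low replicate 1 and CD44v6 replicate 2, chosen after seeing the data, CD44 Low and CD44 High against parental gave 3 and 2 (918 and 933 of 16196). Leaving out 1 library gave, in J82, 0 to 4 for CD44 Low and 0 to 3 for CD44v6 against parental and 1 to 5 for CD44v6 against CD44 Low. In RT-112 it gave 0 to 5 for CD44 Low, 0 to 6 for CD44 High and 0 for CD44v6 against parental. Against CD44 Low it gave 28 (1230 of 16145) to 47 (3091 of 15787) for CD44 High. For CD44v6 against CD44 Low it gave 25 (1004 of 16140) to 39 (1645 of 16139). The parental comparison's median then ran from 0.26 to 0.37. With 3 libraries a group, changes in members of low counts such as MED18, CASP9 and ATP13A2 are the least precise.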
